A study of Saccharomyces cerevisiae with 6 samples.

Results

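The genes described here are 8 regulators through which the budding yeast Saccharomyces cerevisiae senses glucose and represses genes by it: the plasma membrane glucose sensors SNF3 and RGT2, the paired corepressors MTH1 and STD1, the repressor RGT1, and the zinc finger repressors MIG1, MIG2 and MIG3. They were taken by name from the 6256 genes that have a probe on the array, and were found through the systematic name of each probe. Transcript levels were compared between F3, a mutant strain that resists sulfur dioxide and was obtained by evolutionary engineering, and its reference strain. F3 was represented by 3 cultures and the reference by 3, with 1 one-colour Agilent array for each culture. The series design gives minimal medium and early exponential growth for all of them, and the title of each sample also names log phase. The growth label instead names overnight culture in rich medium, and the sources used here do not say how that label fits with the other statements. F3 is a single selected strain, and its genotype, its ploidy and the mutations it carries are not given in the sources used here. The labels used here also name no sulfite treatment for either strain and give no carbon source or glucose concentration at the time of sampling. The comparison asks how expression differs in the resistant strain grown without a stated stress.

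In yeast, Snf3 and Rgt2 resemble hexose transporters but act as receptors, Snf3 at low and Rgt2 at high glucose. Their signal, passed on by membrane-bound casein kinases and the SCF-Grr1 ubiquitin ligase, leads to the loss of Mth1 and Std1, which otherwise let Rgt1 hold the hexose transporter genes silent. Mig1 works in a parallel arm: with glucose present it represses genes for other carbon sources, and when glucose runs short the Snf1 kinase phosphorylates it and it leaves the nucleus. Mig2 and Mig3 bind similar DNA sites.

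Levels are log2 processed signals from which the 75th percentile of their own array was subtracted. A gene that "rose" or "fell" was therefore higher or lower in F3 than in the reference by comparison with that percentile. Each gene had 2 spots on the array, and all 96 spots of the 8 genes over the 6 arrays were well above background, so all 8 passed the filter on dim genes. The duplicate spots of a gene differed by 0.06 on the log2 scale in the median and by at most 0.27. The strains differed across most of the genome. Of 5948 genes tested with limma, 79.7% were called at an adjusted p under 0.05, 41.5% higher and 38.2% lower in F3, and F3 and reference arrays were fully separated, without overlap, in 82.4%. Differences of at least 2-fold were called for 32.8%, of which 988 genes were higher (16.6%) and 963 lower (16.2%), or 4582 and 164 with spike-in scaling. Counts of calls with spike-in scaling may be too high, because the genes of an array share the error of its spike-ins and the fit treats them as independent. The 3 F3 arrays shared a slide and were scanned on another day from the reference arrays, so strain, slide and scan day cannot be told apart.

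All 8 genes were called and had no overlap between the strains, a share to be read against the 79.7% called and 82.4% without overlap among all tested genes. MTH1, SNF3, MIG1, MIG2, RGT1 and MIG3 rose, while STD1 and RGT2 fell (with spike-in scaling RGT2 lay above the reference and STD1 was not called). At least 2-fold, 3 rose (MTH1, SNF3 and MIG1) and 1 fell (STD1). The median log2 difference of the 8 was 0.83, against 0.05 over all genes tested. The 2 genes that fell are each the paralog of one of the genes that rose at least 2-fold.

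**Figure D1:**
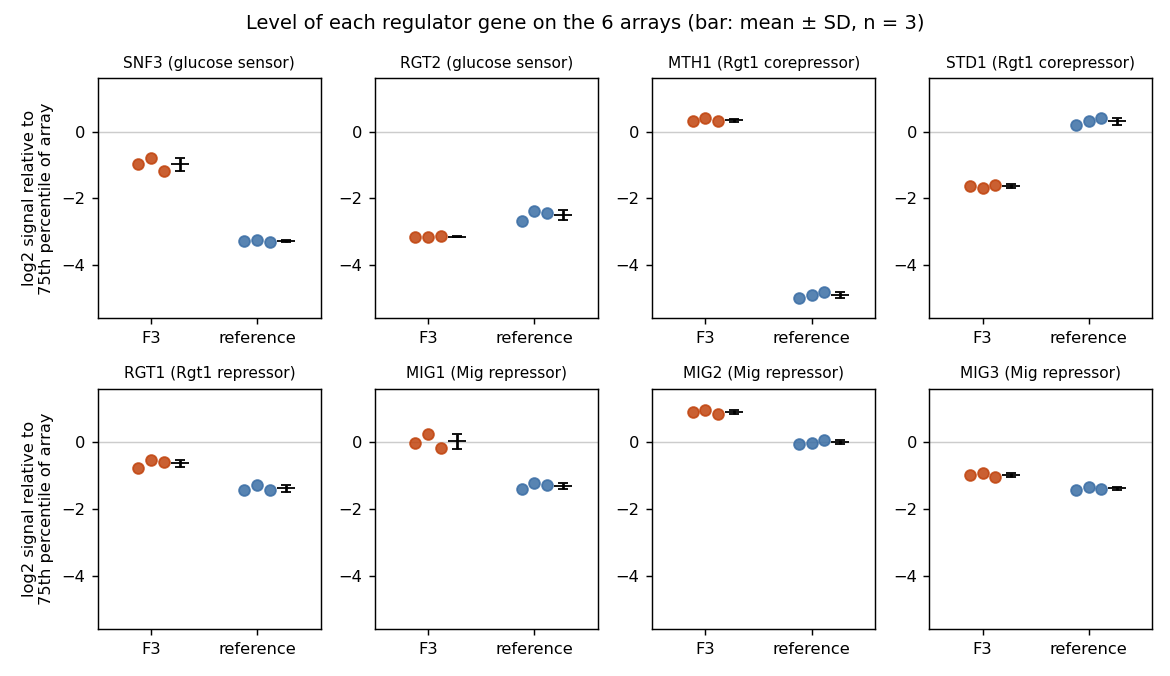
Level of each of the 8 genes on the 3 F3 and 3 reference arrays (vertical axis, log2 signal minus that of the 75th percentile on its array; bars are mean ± SD, n = 3). MTH1 has the widest gap, with means of 0.35 in F3 and −4.90 in the reference, and STD1 and RGT2 are the genes whose F3 points lie below the reference points.

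The sensors changed in opposite directions. SNF3 (YDL194W, chromosome IV), the high-affinity sensor, had levels of −0.98, −0.80 and −1.17 on the F3 arrays, against −3.28, −3.25 and −3.32 on those of the reference. Every F3 array was far above every reference array, and the spread among the F3 arrays was wider (SD 0.18 in F3 and 0.03 in the reference, n = 3 each). SNF3 was 4.93-fold higher in F3 (a log2 difference of 2.30 ± 0.10 SE, limma adjusted p = 1.3e-07), and 4.37% of all tested genes rose by more.

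RGT2 (YDL138W, chromosome IV), the low-affinity sensor, had levels of −3.16, −3.16 and −3.14 on the F3 arrays, against −2.68, −2.38 and −2.44 on those of the reference. The F3 arrays were nearly level with one another and all lay below the lowest reference array, which was that of replicate 1. RGT2 was 1.57-fold lower in F3 relative to the 75th percentile (log2 difference −0.65 ± 0.09 SE, limma adjusted p = 1.7e-04), but 1.06 above the reference with spike-in scaling. A change of this size is common here, since 24.6% of tested genes fell by more.

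MTH1 and STD1 encode related proteins that bind Rgt1 and are needed for its repression. MTH1 (YDR277C, chromosome IV) had levels of 0.31, 0.40 and 0.32 on the F3 arrays, against −4.99, −4.90 and −4.82 on those of the reference. No other of the 8 genes differed as much, and the arrays of each strain lay close together (SD 0.05 in F3 and 0.08 in the reference, n = 3 each). MTH1 was 38.02-fold higher in F3 (a log2 difference of 5.25 ± 0.08 SE, limma adjusted p = 1.4e-09), the 25th largest rise among the genes tested.

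The MTH1 probe was dim in the reference. Before any correction the median signal of its spots was 11687, 11344 and 10068 units of intensity on the F3 arrays, against 129.0, 201.2 and 220.0 units on those of the reference. Negative control spots had medians of 104.5, 102.5 and 104.0 units on the F3 arrays, against 35.5, 37.0 and 42.0 units on those of the reference. MTH1 was thus between 96.8 and 112 times the negative controls in F3, and between 3.63 and 5.44 times them in the reference. With normexp background correction in place of the processed signal, which treats dim spots differently, MTH1 was 23.7-fold higher (log2 difference 4.57).

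STD1 (YOR047C, chromosome XV) went the other way. Its levels were −1.62, −1.70 and −1.59 on the F3 arrays, against 0.19, 0.32 and 0.41 on those of the reference. The reference arrays lay well above the F3 arrays with no overlap, and neither strain's signal was near background. STD1 was 3.85-fold lower in F3 relative to the 75th percentile (log2 difference −1.94 ± 0.08 SE, limma adjusted p = 1.1e-07), and 6.37% of tested genes fell by more. With spike-in scaling its difference was −0.23 and the strains overlapped.

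**Figure D2:**
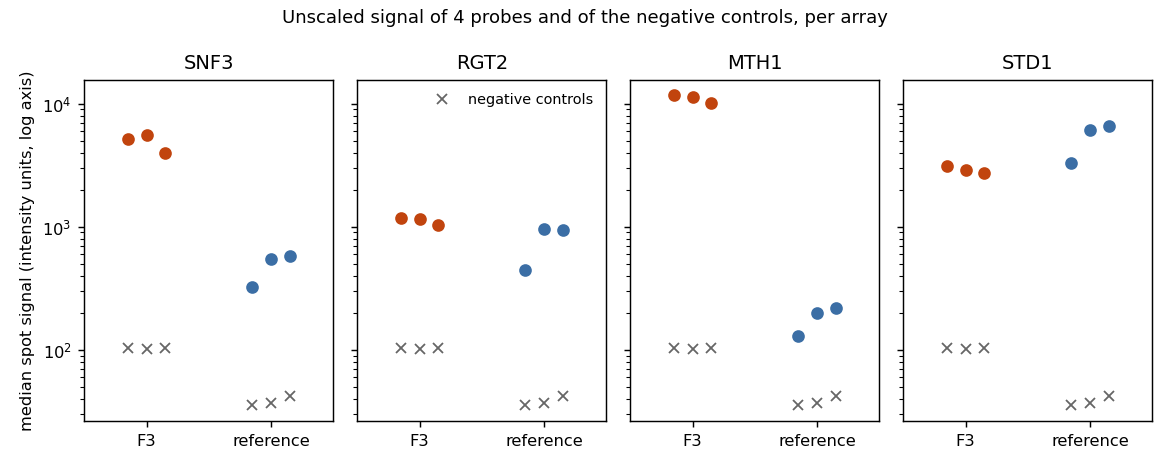
Unscaled median spot signal (intensity units, log axis) of the probes for SNF3, RGT2, MTH1 and STD1 on each array (circles), with the median of the negative control spots of the same array (crosses). MTH1 in the reference, at 129.0 to 220.0 units, is the signal closest to the negative controls.

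RGT1 (YKL038W, chromosome XI), the DNA-binding repressor with which Mth1 and Std1 act, had levels of −0.76, −0.54 and −0.58 on the F3 arrays, against −1.44, −1.26 and −1.43 on those of the reference. The strains did not overlap, and the gap between them was smaller than those of MTH1 and STD1. RGT1 was 1.68-fold higher in F3 (a log2 difference of 0.75 ± 0.09 SE, limma adjusted p = 6.5e-05), and 22.5% of tested genes rose by more. EDS1, the paralog of RGT1, was 2.13-fold higher (1.09 ± 0.11 SE, adjusted p = 2.1e-05), but by less than 2-fold with normexp (0.85) and with quantile normalization (0.98).

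All 3 Mig repressor genes rose, by unequal amounts. MIG1 (YGL035C, chromosome VII), the main repressor of the arm, had levels of −0.01, 0.27 and −0.17 on the F3 arrays, against −1.41, −1.23 and −1.27 on those of the reference. Its F3 arrays spread more widely (SD 0.22) than the F3 arrays did for any other of the 8 genes, and still lay above all reference arrays. MIG1 was 2.52-fold higher in F3 (a log2 difference of 1.33 ± 0.12 SE, limma adjusted p = 8.5e-06), and 10.9% of tested genes rose by more.

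MIG2 (YGL209W, chromosome VII), which shares many targets with MIG1 and is itself a target of Rgt1, had levels of 0.91, 0.98 and 0.84 on the F3 arrays, against −0.05, −0.01 and 0.07 on those of the reference. MIG3 (YER028C, chromosome V), the paralog of MIG2, had levels of −0.97, −0.90 and −1.02 on the F3 arrays, against −1.42, −1.33 and −1.39 on those of the reference. For both genes the arrays of a strain lay close together and apart from those of the other strain. MIG2 was 1.87-fold higher in F3 (a log2 difference of 0.90 ± 0.08 SE, limma adjusted p = 6.4e-06), and 18.7% of tested genes rose by more. MIG3 was 1.33-fold higher (0.41 ± 0.07 SE, adjusted p = 7.7e-04), the smallest difference among the 8, and 65.5% of tested genes differed by more in either direction.

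The ratio of a pair of genes within an array is free of any scaling that shifts all genes of an array equally, though not of quantile normalization. It was used to describe how far paralogs differed in their changes. Relative to the reference mean, the log2 ratio of MTH1 to STD1 was 7.14, 7.31 and 7.12 on the F3 arrays, against 0.03, −0.02 and −0.02 on those of the reference. That of SNF3 to RGT2 was 2.96, 3.14 and 2.75 in F3 and 0.18, −0.09 and −0.09 in the reference. MIG2 to MIG3 gave 0.50, 0.50 and 0.48 in F3 and −0.01, −0.07 and 0.08 in the reference. In each pair the ratio was higher on every F3 array than on any reference array, and the mean shifts were 7.19, 2.95 and 0.49 (exact permutation test over the 6 arrays, two-sided, p = 0.1 for each, the smallest value that 3 against 3 arrays allow). For MTH1 to STD1 and SNF3 to RGT2 this separation was already fixed, because the paralogs had changed in opposite directions without overlap. Only MIG2 to MIG3 could have come out otherwise. With normexp background correction the shift of MTH1 to STD1 was 6.54. Cross-hybridisation between paralogs was not tested.

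**Figure D3:**
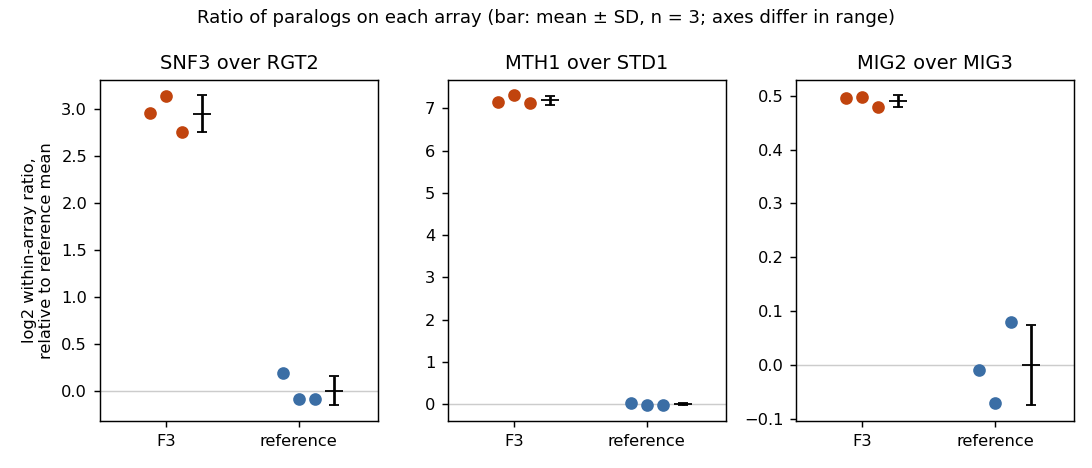
Log2 ratio of each paralog pair within an array, relative to the mean ratio of the reference arrays (bars are mean ± SD, n = 3; the vertical axes differ in range). The F3 points lie above the reference points in all 3 pairs, with shifts of 2.95 for SNF3 over RGT2, 7.19 for MTH1 over STD1 and 0.49 for MIG2 over MIG3.

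In order of log2 difference the genes ran MTH1, SNF3, MIG1, MIG2, RGT1, MIG3, RGT2 and STD1. The same within-array ratio was taken for each of the 7 neighbouring pairs in that order, as a description, since the order itself makes each shift positive. The ratio of MIG2 to RGT1 overlapped between the strains (shift 0.16, SD 0.12 in F3 and 0.12 in the reference), so the arrays did not fully separate their changes. The other 6 ratios had no overlap, and their shifts lay between 0.33 for RGT1 over MIG3 and 2.95 for MTH1 over SNF3.

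Scaling to the spike-in RNAs moved all 8 genes up by the same amount. The mean log2 signal of the 7 spike-in probes used was between 11.71 and 11.92 on the F3 arrays and between 11.68 and 13.22 on the reference arrays, a range of 0.21 in F3 and 1.54 in the reference. On this scale the median of all tested genes lay at 1.76, with MTH1 at 6.96, SNF3 at 4.01, MIG1 at 3.04, MIG2 at 2.62, RGT1 at 2.46 and MIG3 at 2.12. RGT2 at 1.06 and STD1 at −0.23 then lay 0.70 and 1.99 below the median of all genes. RGT2 and STD1 were thus lower in F3 relative to the median transcript, and neither was lower by the test relative to the spike-ins.

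**Figure D4:**
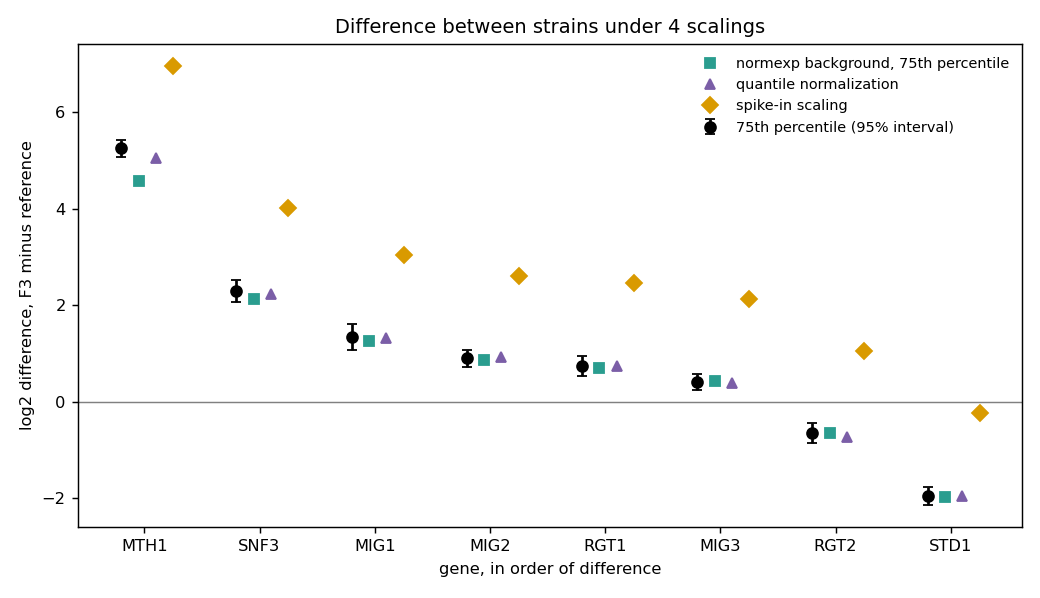
Log2 difference (F3 minus reference) of each gene with arrays scaled to the 75th percentile (circles, 95% interval of the fit), with normexp background correction (squares), quantile normalization (triangles) and spike-in scaling (diamonds). The first 3 settings lie close together except for MTH1, at 5.25 and 4.57 with normexp, and spike-in scaling lifts every gene, RGT2 to 1.06.

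Genes that carry the sensor signal to Mth1 and Std1 changed in both directions and by less than 2-fold. Of 8 in the list, 4 rose and 4 fell, with a median difference of 0.01. Among all tested genes 41.5% rose and 38.2% fell. All 8 lay above 0 with spike-in scaling, where the median of all tested genes was 1.76. On that scale 5092 of 5948 tested genes were called higher, a count that may be too high. YCK2, one of the casein kinases, was lower by the 75th percentile (−0.97 ± 0.08 SE, adjusted p = 5.5e-06, and 0.74 with spike-in scaling), as was its paralog YCK1 (−0.33 ± 0.09 SE, and 1.38 with spike-in scaling). GRR1, the F-box protein that targets Mth1 and Std1 for breakdown, was likewise lower (−0.75 ± 0.08 SE, and 0.96 with spike-in scaling). CDC34, the ubiquitin-conjugating enzyme of the ligase, rose by 0.91 (SE 0.10). The scaffold and RING subunits CDC53 and HRT1 rose by 0.34 and 0.47, and the adaptor SKP1 was lower (−0.25 ± 0.09 SE, and 1.46 with spike-in scaling). The SKP1 call was lost with quantile normalization (−0.20, adjusted p = 0.0697), with the authors' deposited table (−0.20) and on leaving out 1 array, for 5 of the 6. AKR1, which palmitoylates the casein kinases, rose by 0.28 (SE 0.09), and its call was lost in the same way for 4 of the 6.

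A list of 13 genes that control Mig1 held the Snf1 kinase complex, its upstream kinases, the Glc7 phosphatase, Hxk2 and the Cyc8-Tup1 corepressor. Of these, 8 rose, 3 fell and 2 were not called, and the median was 0.41. The 11 called of 13 are near the 79.7% called among all tested genes. Among all tested genes 41.5% rose and 38.2% fell. All 13 lay above 0 with spike-in scaling, where the median of all tested genes was 1.76. SIP2, a beta subunit of Snf1 kinase, was the one that rose at least 2-fold (2.54 ± 0.12 SE, adjusted p = 2.0e-07, and 1.81 with normexp background correction). GAL83, another beta subunit, rose by 0.86 (SE 0.08), and the third, SIP1, by 0.48 (SE 0.08). The phosphatase GLC7 and its Mig1-directed subunit REG1 rose by 0.53 and 0.57. Of the kinases upstream of Snf1, TOS3 (−0.91 ± 0.07 SE), ELM1 (−0.40 ± 0.09 SE) and SAK1 (−0.25 ± 0.09 SE) were all lower by the 75th percentile, and all above 0 with spike-in scaling (0.80, 1.31 and 1.46). HXK2, the hexokinase linked to Mig1 repression, did not pass (0.15 ± 0.08 SE, adjusted p = 0.138), but was called higher with quantile normalization (0.57, adjusted p = 2.0e-04), also after normexp (0.48), and with the authors' deposited table (0.62). TUP1 did not pass either (0.21 ± 0.12 SE, adjusted p = 0.134), and was called without reference replicate 2 (0.32, adjusted p = 0.0402). SNF4, the gamma subunit of Snf1 kinase, rose by 0.24 (SE 0.08), but was not called with normexp (0.17, adjusted p = 0.0791) or on leaving out 1 array, for 2 of the 6. The SAK1 call was lost in that way for 4 of the 6. CYC8 rose by 0.59 (SE 0.07).

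Known targets of Rgt1 were split. Of 6, 4 rose and 2 fell (all 6 lay above 0 with spike-in scaling, and 1 fell under both quantile normalizations and in the authors' deposited table), and the median was 1.31, where 41.5% of all tested genes rose and 38.2% fell. HXT2, a high-affinity hexose transporter gene, rose by 4.34 (SE 0.18). YKR075C and YOR062C, paralogs of unknown function that are under Rgt1 control, rose by 4.47 (SE 0.10) and 1.85 (SE 0.11). HXT4, which like HXT2 encodes a high-affinity transporter, rose by 0.76 (SE 0.16), with F3 arrays that spread widely (SD 0.36 in F3 and 0.04 in the reference). The low-affinity HXT3 (−0.28 ± 0.07 SE, adjusted p = 0.0065) and HXT1 (−1.11 ± 0.09 SE) were lower by the 75th percentile, and both lay above 0 with spike-in scaling (1.43 and 0.60). HXT3 also lay above 0, and was not called, with quantile normalization (0.13, adjusted p = 0.1300, or 0.10 after normexp) and with the authors' deposited table (0.17). STD1 and MIG2, which fell and rose as given above, are also Rgt1 targets.

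Of 14 targets of Mig1, 13 rose and 1 fell, 11 rose at least 2-fold, and the median was 2.39. Among all tested genes 41.5% rose and 38.2% fell, and 16.6% rose at least 2-fold. All 14 lay above 0 with spike-in scaling, where the median of all tested genes was 1.76. The 14 include HXT2 and HXT4 of the list above. The Mig1 target list was drawn up with results for several of its genes known, so its direction is no independent evidence. SUC2, the invertase, rose by 1.96 (SE 0.19), and JEN1, the lactate and pyruvate permease, by 3.75 (SE 0.35, and 3.11 with normexp). REG2, a phosphatase subunit related to REG1, rose by 2.05 (SE 0.21, and 1.46 with normexp). The activator of the galactose genes, GAL4, rose by 1.91 (SE 0.18), but by 0.84 with normexp. GAL3, which takes part in the induction of those genes, rose by 0.99 (SE 0.12, and 0.61 with normexp). GAL1, galactokinase, was the gene that was lower (−0.56 ± 0.13 SE, adjusted p = 0.0035, and 1.15 with spike-in scaling). Its probe was dim in both strains, with mean levels of −5.02 in F3 and −4.46 in the reference. The GAL1 difference was −0.66 with normexp and −0.92 with quantile normalization. MAL12 and MAL32, near-identical maltase genes whose probes may not separate them, rose by 5.56 and 5.32.

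**Figure D5:**
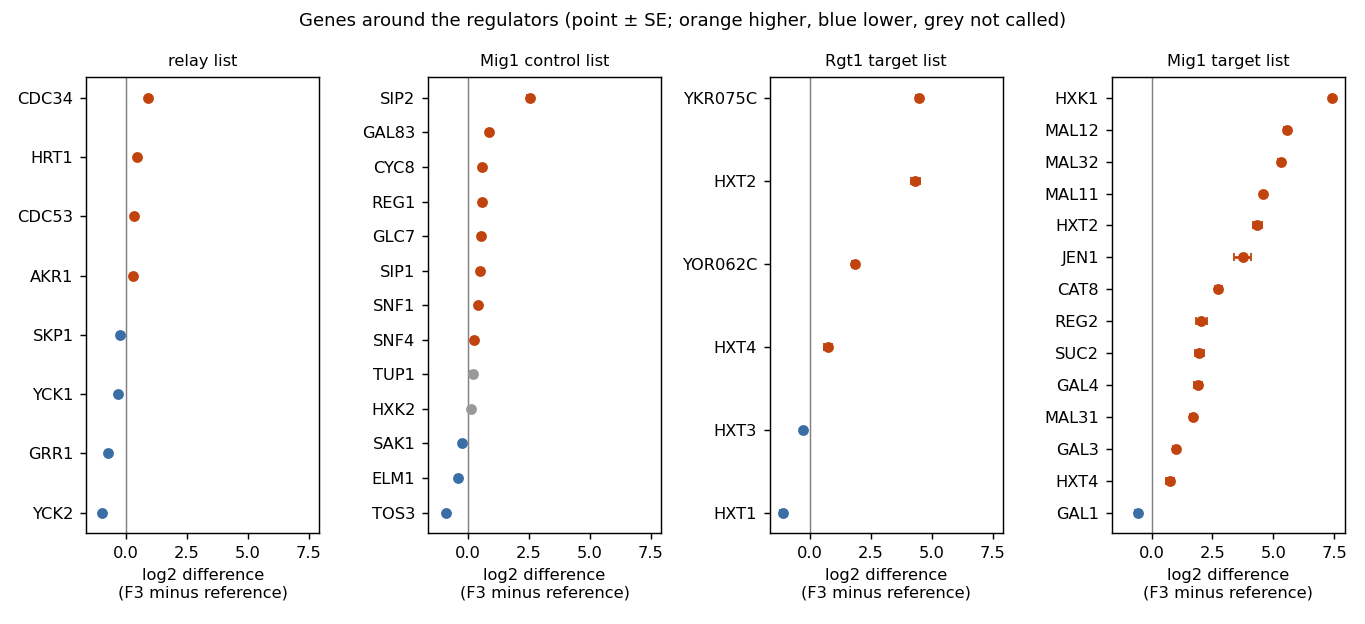
Log2 difference (F3 minus reference, horizontal axis; points ± SE of the fit) of the genes in 4 lists around the regulators, with genes that passed the test as higher in orange, lower in blue and those not called in grey. The relay genes lie between −0.97 and 0.91, whereas 13 of 14 Mig1 targets lie above 0, up to 7.40 for HXK1.

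The differences were also set beside those of the nearest tested gene on each side in the gene order of the RefSeq table. Of 16 such neighbours 9 rose, 5 fell and 2 were not called, where 41.5% of all tested genes rose and 38.2% fell. MTH1 lay between PMP3 (0.14 ± 0.10 SE, not called) and RNH202 (−0.20 ± 0.08 SE), neither of which approached its difference. STD1 was flanked by DBP5 (−0.36) and RAT1 (−1.10), both lower as it was, and SNF3 by SEC31 (0.97) and NUS1 (0.60), both higher. AIM26 beside RGT1 (2.18 ± 0.30 SE) and YGL034C beside MIG1 (2.38 ± 0.29 SE) rose by more than their gene (0.75 and 1.33). Of the 16 neighbours, 11 had a difference with the same sign as that of their gene. Neighbours also went against their gene: SCM3 rose beside RGT2 (0.62), while YPT32 beside MIG2 (−1.04) and SMB1 beside MIG3 (−0.45) fell. MIG2 neighbours SIP2 and MIG3 neighbours GAL83, so these genes of the Snf1 and Mig arm lie side by side in both places, with differences of 2.54 for SIP2 and 0.90 for MIG2, and of 0.86 for GAL83 and 0.41 for MIG3.

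The genes most like MTH1 over the 6 arrays, by the root mean square difference of levels centred on each gene's mean, were GSY1, a glycogen synthase (0.07), PGM2, phosphoglucomutase (0.07), and MAL32 (0.14), with log2 differences of 5.21, 5.37 and 5.32. Those most like STD1 were YML108W (0.06), KTI12 (0.06) and CTP1, the mitochondrial citrate carrier (0.06), with differences of −2.03, −1.96 and −1.89. Over 6 arrays of 2 strains this measure depends mostly on the difference between the strains. The near-equal differences therefore follow from the selection, and shared regulation was not tested.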

How the data were processed

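Per the file headers, spots were read with version 10.7.3.1 of Agilent Feature Extraction, and version 9.1 is named in the submitters' processing notes. The deposited processed signal is an intensity, background-subtracted and detrended within each array. The authors' deposited value table holds log2 values centred per probe, and the medians of its columns were 0.0098, 0.000 and 0.0110 in F3, against −0.0055, −0.0056 and −0.0141 in the reference. Its direction is that of the scanner values (r between 0.9877 and 0.9931), and its scaling between arrays stays unknown. Flags for spots well above background are other deposited columns.

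Control spots were left out, log2 signals of the 2 spots of a gene were averaged, and the array's 75th percentile was subtracted, which would hide a difference in total messenger RNA. The 75th percentile was 8314 to 9534 intensity units in F3 and 2791 to 4973 in the reference. The software's flags for a good grid and for a negative control signal in range were unset on all 3 F3 arrays and set on all 3 reference arrays. Genes well above background on at least 3 of 6 arrays were tested (5948 kept, 308 left out) with limma 3.58.1 in R 4.3.3 (two-sided, Benjamini-Hochberg over all tested genes, threshold 0.05). On data simulated for this comparison over 5948 genes, 92% of the 100 genes changed by 1 on the log2 scale were called. Of the unchanged genes 6 were called. The simulation left most genes unchanged and drew noise separately for each gene. In the real data 79.7% were called and the genes of an array share error, so that share need not hold here. As gMeanSignal is not a column of the files, normexp (offset 50) used the median signal. Replicates are separate cultures by the series design. Deviations of same-numbered arrays correlated at −0.15, 0.08 and −0.25, so numbers were not taken as pairs. Names came from the RefSeq table of the R64 assembly (5756 by systematic name, 23 by synonym, 477 unmatched). All 8 regulators, any gene of the 4 lists, EDS1 and the 3 genes most like MTH1 and STD1 were to be named, and neighbouring genes were added after values were seen. Members and lists were chosen with earlier results of these data known. Alternatives were other background, scaling, filter, slide and replicate settings.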

Additional observations from a re-analysis of the deposited data

How the results depend on the processing

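Each of the 8 genes was fitted under 16 alternatives. The filter settings and the replicate block leave a difference as it is, so only its call could change. Median scaling and the slide setting also left the 8 differences almost unchanged. The slide setting cannot separate slide from strain, since the F3 arrays share a slide that holds no reference array. Leaving out 1 array could not reverse a gene, as none of the 8 overlapped between the strains. Of the 128 differences, 126 kept their direction and their call. The exceptions came with spike-in scaling, where RGT2 was higher (1.06) and STD1 was not called (−0.23, adjusted p = 0.444). That scaling lifts every gene by the same amount, and the genes called at least 2-fold then numbered 4746 against 1951, a count that may be too high because genes of an array share the spike-in error. Leaving out each array in turn gave 5.21 to 5.29 for MTH1, −2.002 to −1.894 for STD1 and −0.74 to −0.59 for RGT2, and no call of the 8 was lost (largest adjusted p = 0.0041). With the replicate block the limma adjusted p was 3.6e-08 for MTH1 and 0.0035 for MIG3. The ratio shifts moved by more than the spread between arrays in 6 cases over 4 settings: MTH1 to STD1 was 6.54 with normexp, 6.49 with normexp and quantile normalization, 6.998 with quantile normalization and 7.01 with the authors' table. SNF3 to RGT2 was 2.77 with normexp and quantile normalization, and MIG2 to MIG3 was 0.43 with normexp. Leaving out 1 array brought the relay list to between 6 and 7 called genes of 8, and the Mig1 control list to between 9 and 11 of 13. Over all 5948 tested genes, the number called then fell from 4742 to between 4434 and 4651, so fewer calls were not particular to these lists. Signal over background limits MTH1 most among the 8. With 3 arrays a strain, an exact test of a single value cannot go below 0.1, and no scaling separates strain from scan day.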
